A study of Mus musculus with 4 samples.

Results

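The genes described here encode the ligands and receptors of vascular endothelial growth factor (VEGF) and angiopoietin signalling, followed through the mouse thalamus after a collagenase injection. Members were taken by symbol, and all 10 were found among the 40091 genes of the expression files. They were the VEGF receptor ligands Vegfa, Vegfc and Pgf, the receptors Flt1 and Kdr, the coreceptor Nrp1, the angiopoietins Angpt1 and Angpt2, and the receptors Tek and Tie1. Single-nucleus RNA sequencing (snRNA-seq) on the 10x Genomics Chromium system was used, in which each unique molecular identifier (UMI) counts 1 captured RNA molecule. In the COL group collagenase of type IV (Coll IV, 0.01 U/10 nl) was injected into the right ventral posteromedial (VPM) and ventral posterolateral (VPL) nuclei of the thalamus, and in the NS group normal saline. All mice were wild-type C57BL6 animals, 7 to 8 weeks old, and thalamic tissue was taken 7 days after the injection. Each of the 4 libraries, 2 per group, pooled the tissue of 3 mice, so animals within a library could not be told apart. Collagenase IV digests the basement membrane of vessels and causes bleeding, and what part of the tissue the injection reached was not measured.

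VEGF ligands are secreted proteins that bind receptor tyrosine kinases on endothelial cells, the cells that line blood vessels. Vegfa acts mainly through Kdr (VEGF receptor 2), Flt1 (VEGF receptor 1) binds Vegfa and Pgf (placental growth factor) with high affinity but signals weakly, and Nrp1 (neuropilin-1) is a coreceptor that also binds semaphorins on neurons. Vegfc is best known as the ligand of the lymphatic receptor Flt4. Angpt1 activates the endothelial receptor Tek (Tie2) and stabilises vessels, Angpt2 acts on Tek as a weaker or opposing ligand, and Tie1 is a related receptor that modulates Tek.

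The 4 libraries held 32291 nuclei that passed 2 filters, over 50 genes detected and a mitochondrial share of UMIs under 5%. NS replicates 1 and 2 held 9673 and 10422 nuclei, and COL replicates 1 and 2 held 5931 and 6265. Total UMIs ranged from 68723738 to 77546840 per library, while the median UMIs per nucleus were 6489 and 4649 in NS and 8664 and 8691 in COL, so COL nuclei were read more deeply. Pairs of libraries shared 8 to 31 cell barcodes. Nuclei were assigned to cell classes by marker lists that contain no member of this gene set, and 2222 nuclei with a second class score near the best, or with too few markers of any class, were set aside as mixed. Neurons were the largest class with 15873 nuclei, followed by 8943 oligodendrocytes, 2549 astrocytes, 1301 microglia, 856 oligodendrocyte precursors (OPC) and 251 macrophages. Vascular classes were small: 27 endothelial nuclei, 59 mural nuclei and 65 vascular fibroblasts. Astrocytes made up 10.8% ± 1.56 of nuclei in NS and 3.08% ± 0.971 in COL (mean ± SD, n = 2), macrophages 0.0192% ± 0.0271 and 2.02% ± 0.351, and mixed nuclei 4.77% ± 0.480 and 10.3% ± 0.596. Under a stricter class gate macrophages were 0.648% of COL nuclei, and mixed nuclei were 11.1% of NS and 25.9% of COL nuclei. The shares of these 3 classes did not overlap between groups under the main gate, and the exact permutation test gave p = 0.33 (two-sided), the smallest that 2 against 2 libraries allow.

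Endothelial nuclei were 0.0591% ± 0.025 of NS nuclei and 0.123% ± 0.0301 of COL nuclei (mean ± SD, n = 2, exact permutation p = 0.33), from 4, 8, 6 and 9 nuclei in NS replicate 1, NS replicate 2, COL replicate 1 and COL replicate 2. Under a stricter class gate the shares were 0.0591% and 0.0976%, the groups overlapped and the exact permutation p was 0.667. Their level was given as CPM, the gene's UMIs divided by all UMIs of the class in that library and scaled to the usual CPM total, and here each value rests on few nuclei. In every endothelial nucleus at least 1 UMI of Flt1 was found. Tek was found in 20 of the 27, Nrp1 in 18, Tie1 in 13 and Kdr in 12, whereas Vegfc was found in 4, Angpt1 in 3 and Vegfa, Pgf and Angpt2 in 1 each. Outside this class the receptors Flt1, Kdr, Tek and Tie1 were rarely found together: UMIs of 2 or more of the 4 lay in 23 of 27 endothelial nuclei (85.2%) and in 37 of 32264 other nuclei (0.115%). All 4 receptors were found together in 6 endothelial nuclei and in 0 of the others.

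The stretches just before the start sites of these 4 receptor genes are shown because their transcripts marked the same nuclei. GGAA is the core of the motif bound by ETS transcription factors, a family known for endothelial gene control. The sequences are the 150 bases before the start given by RefSeq (GRCm38.p6), written 5′ to 3′ on the gene's strand, with each GGAA, or TTCC where the core lies on the other strand, in capitals. Flt1 is shown from chr5:147726012-147726161 (minus strand), Kdr from chr5:75978456-75978605 (minus strand), Tek from chr4:94739139-94739288 (plus strand) and Tie1 from chr4:118489850-118489999 (minus strand). RefSeq and GENCODE place some starts differently, and the Tie1 stretch lies inside the Tie1 gene as GENCODE draws it, while that of Kdr overlaps the edge of the Kdr gene.
Flt1: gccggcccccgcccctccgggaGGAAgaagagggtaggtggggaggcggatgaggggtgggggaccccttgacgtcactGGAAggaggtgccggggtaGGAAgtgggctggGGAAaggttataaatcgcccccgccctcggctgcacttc
Kdr: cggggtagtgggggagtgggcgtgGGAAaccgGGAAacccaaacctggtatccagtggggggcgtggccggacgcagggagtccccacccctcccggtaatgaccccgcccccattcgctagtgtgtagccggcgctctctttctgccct
Tek: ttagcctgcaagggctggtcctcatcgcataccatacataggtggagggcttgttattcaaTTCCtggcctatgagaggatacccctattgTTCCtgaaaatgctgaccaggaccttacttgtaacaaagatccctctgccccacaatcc
Tie1: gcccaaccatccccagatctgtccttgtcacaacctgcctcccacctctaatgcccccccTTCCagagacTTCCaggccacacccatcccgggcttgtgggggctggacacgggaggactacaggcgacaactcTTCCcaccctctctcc
The core was found 4 times before Flt1, 2 times before Kdr, 2 times before Tek and 3 times before Tie1, both strands counted. Among 32851 stretches of the same length before the starts of all genes in the table, 80.8% held at least 1 core, 50.9% at least 2, 26.1% at least 3 and 10.9% at least 4. Kdr and Tek thus had the median number of cores of all genes, which was 2. The table matched 8 of the 10 members, and the other stretches held 2 and 3 cores (Vegfa, which has 2 listed starts), 1 (Vegfc), 0 (both starts of Pgf) and 2 (Nrp1). A match of these letters is a description of the sequence and not of binding.

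Flt1 (chr5:147561604-147726011, minus strand, GRCm38) was measured in endothelial nuclei at 4313 and 4034 CPM in NS and at 4604 and 3116 CPM in COL, from 32, 60, 284 and 131 UMIs. The COL and NS values overlapped. Against all other nuclei its log2 difference was 10.50 ± 0.59 (SE, adjusted p = 1.35e-66), which is the edgeR quasi-likelihood test with the library as a block and Benjamini-Hochberg adjustment over all genes tested, as in every class comparison here. Endothelial nuclei had 5 of 10 members called higher and none lower, beside 8.65% of 23200 genes called in either direction. A called gene is one with an adjusted p under 0.05. The median log2 difference of all genes was −2.38 in this comparison, −1.50 for mural nuclei and between −0.914 and −0.0407 for the other classes.

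Tie1 (chr4:118471191-118490061, minus strand) had 38 UMIs in all, and 21 of them (55.3%) lay in the 27 endothelial nuclei. Its endothelial level was 404 and 202 CPM in NS and 146 and 143 CPM in COL, from 3, 3, 9 and 6 UMIs, and the log2 difference from other nuclei was 10.53 ± 0.775. Kdr (chr5:75932827-75978458, minus strand) lay at 270 and 202 CPM in NS and at 211 and 119 CPM in COL, from 2, 3, 13 and 5 UMIs, and its log2 difference was 6.43 ± 0.733. Tek (chr4:94739289-94874976, plus strand) lay at 539 and 471 CPM in NS and at 341 and 1189 CPM in COL, from 4, 7, 21 and 50 UMIs, with a log2 difference of 5.83 ± 0.549. COL replicate 2 was thus the high library for Tek, and the NS libraries lay between the COL libraries. Nrp1 was measured at 404 and 874 CPM in NS and 259 and 309 CPM in COL and was not called against all other nuclei (adjusted p = 0.319).

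Among ligands, Pgf was called higher in endothelial nuclei (log2 difference 3.93 ± 1.11, adjusted p = 0.00702), but all 5 of its endothelial UMIs came from 1 nucleus of COL replicate 1, and without that library the fitted difference was −8.82 (adjusted p = 0.867). That nucleus was also the deepest of the class, with 33858 UMIs, whereas the other 26 had between 927 and 11017. It held 178 of the 284 endothelial Flt1 UMIs of its library, and without it the Flt1 level of COL replicate 1 was 3810 CPM, again within the range of the other libraries. Vegfa had a single endothelial UMI in all. The endothelial marker list summed in these nuclei to 16300 and 13800 CPM in NS and 12100 and 14700 CPM in COL. Of its 16 markers 2 were at 0 in NS replicate 1 and none elsewhere. The mural list summed to 0 and 403 CPM in NS and 1620 and 381 CPM in COL. The fibroblast list summed to 0 and 0 against 486 and 71.4 CPM, while the oligodendrocyte list was lowest in COL replicate 1 (713 CPM). The part of such RNA in the endothelial Pgf, Angpt1 and Angpt2 UMIs, all from COL replicate 1, was not tested.

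**Figure D1:**
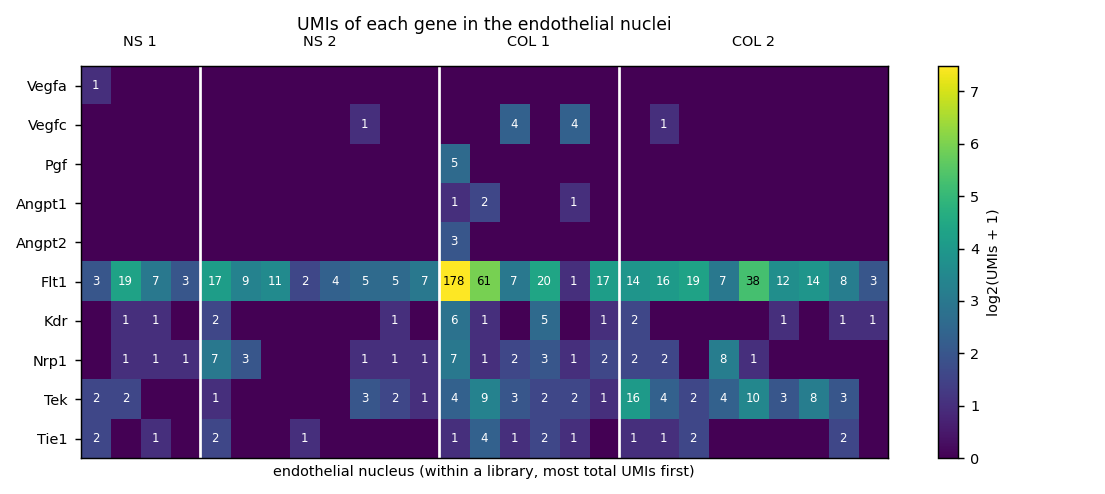
UMIs of each of the 10 genes (rows) in each of the 27 endothelial nuclei (columns), ordered by library; colour is log2(UMIs + 1) and the number printed is the UMI count. The Flt1 row is filled in every column, and the column of 178 Flt1 UMIs is the deepest nucleus, from COL replicate 1.

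The ligand Vegfa (chr17:46016993-46032369, minus strand) is the main inducer of vessel sprouting. Among the 5 classes with at least 10 nuclei in every library, Vegfa was highest in astrocytes. Its astrocyte level was 141 and 113 CPM in NS and 105 and 70.8 CPM in COL, followed by OPC at 59.9 and 66.2 CPM in NS and 71.5 and 49.6 CPM in COL. Both were called higher than all other nuclei, with log2 differences of 2.47 ± 0.151 (adjusted p = 1.08e-13) in astrocytes and 1.41 ± 0.144 (adjusted p = 3.11e-21) in OPC. Astrocytes lay above OPC in 4 of 4 libraries. Neurons at 15.0 to 18.0 CPM and oligodendrocytes at 14.2 to 18.5 CPM overlapped, and microglia lay below both in mean level at 4.40 to 16.5 CPM. Macrophages, which were nearly confined to COL libraries, held Vegfa at 61.6 and 51.7 CPM there. Over the 4 libraries 54.3% of all Vegfa UMIs lay in neurons and 19.8% in astrocytes. This and the neuronal shares below are to be read beside all genes, of whose 285255179 UMIs 207860870 lay in neurons. The astrocyte share of Vegfa UMIs was 33.0% and 25.9% in NS and 6.78% and 8.59% in COL, where fewer nuclei were astrocytes, and in COL oligodendrocytes held more of them (11.5% and 10.8%).

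Angpt1 (chr15:42424723-42676977, minus strand), the activating ligand of Tek, was also led by astrocytes among the large classes. Its astrocyte level was 89.0 and 119 CPM in NS and 181 and 202 CPM in COL, and the log2 difference from all other nuclei was 2.19 ± 0.163 (adjusted p = 6.03e-12). Vascular fibroblasts (26.8 to 132 CPM) and mural nuclei (29.6 to 103 CPM), from few nuclei, came next and were not called. OPC at 21.2 to 48.3 CPM and neurons at 28.8 to 36.4 CPM overlapped, and oligodendrocytes and microglia were called lower. Astrocytes had 8 of 9 tested members called, 4 higher (Vegfa, Angpt1, Pgf and Nrp1) and 4 lower (Vegfc, Angpt2, Flt1 and Tek), beside 44.7% of all genes called. OPC had 3 of 9 called, beside 30.8% of all genes, with Vegfa higher and Nrp1 and Tek lower.

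Vegfc (chr8:54077606-54187096, plus strand) was measured in neurons at 11.8 and 15.6 CPM in NS and 15.2 and 11.4 CPM in COL, and 87.0% of its UMIs lay there. It was called higher in neurons (log2 difference 1.38 ± 0.155, adjusted p = 0.000126) and in the 65 vascular fibroblasts (2.02 ± 0.466, adjusted p = 0.000242), where it lay between 26.8 and 112 CPM from 26 UMIs in all. Without COL replicate 1 the fibroblast difference was 1.79 and its adjusted p 0.0535. OPC and neurons overlapped, with OPC at 11.7 to 19.0 CPM. Pgf (chr12:85166635-85177790, minus strand) was low in all large classes, with 421 UMIs in all, and was called higher in astrocytes (1.81 ± 0.346, adjusted p = 8.71e-05), where its level was 6.4 and 5.43 CPM in NS and 0 and 5.85 CPM in COL.

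Angpt2 (chr8:18690263-18741562, minus strand), known as a product of endothelial cells, had 85.0% of its UMIs in neurons, the largest class. Endothelial nuclei held 3 UMIs, all from the deepest nucleus, which is a level of 23.8 CPM over the 4 libraries together (95% Poisson interval 4.91 to 69.6) against 20.4 CPM in neurons. Its neuronal level was 25.3 and 27.9 CPM in NS and 11.4 and 16.7 CPM in COL, and the log2 difference from all other nuclei was 1.16 ± 0.129 (adjusted p = 0.000123). OPC (13 to 25.1 CPM) and microglia (8.96 to 23.5 CPM) overlapped with neurons, and oligodendrocytes and astrocytes had lower mean levels. Angpt2 overlaps Mcph1, a gene on the other strand, and Mcph1 had 23643 UMIs. Whether counting used the strand is not given in the sources used here, so the reads of this pair cannot be told apart with certainty. Mcph1 lay at 88.3 and 76.2 CPM in NS neurons and at 100 and 108 CPM in COL neurons, the opposite order of groups from Angpt2.

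Of all Tek UMIs 85.7% lay in neurons, and Tek was called higher there than in all other nuclei (log2 difference 1.09 ± 0.34, adjusted p = 0.0231). The call was lost without NS replicate 1 (0.82, adjusted p = 0.0967) and without NS replicate 2 (0.75, adjusted p = 0.106). With nuclei thinned to 1000 UMIs, 0.827% of neurons over the 4 libraries had a Tek UMI. The shares were 0.434% in astrocytes, 0.180% in oligodendrocytes and 0.231% in microglia. In COL alone the astrocyte shares were 0.71% and 0.85%, from 1 and 2 nuclei, and the neuronal shares 0.16% and 0.38%. Unthinned, the shares over the 4 libraries were 8.84% in neurons, 1.33% in astrocytes, 0.615% in oligodendrocytes and 0.461% in microglia. Median depths in this order were 11110, 3729, 3755 and 2963 UMIs. The part of free RNA in the droplets in these shares was not tested. Neurons had 8 of 10 members called, 3 higher (Vegfc, Angpt2 and Tek) and 5 lower (Vegfa, Pgf, Flt1, Kdr and Tie1), beside 64.1% of all genes called.

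Nrp1 (chr8:128358604-128503363, plus strand), which serves axon guidance as well as VEGF signalling, had a broad pattern. Microglia held it at 341 and 283 CPM in NS and at 572 and 584 CPM in COL (log2 difference from all other nuclei 1.76 ± 0.206, adjusted p = 1.04e-05), and astrocytes at 192 and 223 CPM in NS and 260 and 240 CPM in COL (1.11 ± 0.125, adjusted p = 2.4e-08). Neurons lay at 77.0 to 118 CPM and held 68.4% of its UMIs. OPC and oligodendrocytes lay lowest, at 20.9 to 48.3 CPM and 12.7 to 40.2 CPM. The macrophages of COL replicates 1 and 2 held Nrp1 at 625 and 881 CPM, but 171 of the 251 macrophages lay near the class boundary, so their separation from microglia is uncertain. In vascular fibroblasts it was called higher (0.90 ± 0.321, adjusted p = 0.0404), a call that was lost without COL replicate 1 (0.73, adjusted p = 0.403), without NS replicate 1 (0.66, adjusted p = 0.175), under a stricter class gate (0.53, adjusted p = 0.441) and by DESeq2 (1.14, adjusted p = 0.0638).

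UMIs of the VEGF receptors were also found outside endothelial nuclei. Flt1 was called higher in mural nuclei, the pericytes and smooth muscle cells that wrap vessels (log2 difference 5.42 ± 0.551, adjusted p = 1.89e-20), at 242 and 59.3 CPM in NS and 62.9 and 258 CPM in COL from 30 UMIs in all. The endothelial marker list summed to 242 and 237 CPM in NS mural nuclei and to 157 and 258 CPM in COL mural nuclei, with 11, 12, 14 and 12 of its 16 markers at 0, and its part in the Flt1 level was not tested. Kdr was called higher in oligodendrocytes (1.67 ± 0.273, adjusted p = 0.000701). It lay there at 2.07 and 2.06 CPM in NS and 1.85 and 4.12 CPM in COL, from 16, 24, 17 and 44 UMIs. Mean Kdr levels over the 4 libraries were 2.525 CPM in oligodendrocytes, 2.96 CPM in microglia and 0.591 CPM in neurons. The call thus does not set oligodendrocytes apart from microglia. Macrophages held 13 Flt1 and 10 Kdr UMIs, at 9.6 and 7.4 CPM over the libraries together. In microglia, from 18 and 16 UMIs in all, mean Flt1 was 1.42 CPM in NS and 5.60 CPM in COL. Mean Kdr there was 1.42 and 4.51 CPM. Neither gene had enough UMIs for a test between the groups in microglia. The endothelial list in oligodendrocytes summed to 31.2 and 32.4 CPM in NS and 22.2 and 28.4 CPM in COL, and its part was not tested. Kdr UMIs were spread, with 38.0% in neurons, 32.0% in oligodendrocytes and 7.28% in endothelial nuclei, whereas 58.3% of Flt1 UMIs lay in endothelial nuclei.

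Of the remaining classes, oligodendrocytes had 8 of 9 tested members called, Kdr higher and 7 lower, beside 65.0% of all genes called. Microglia had 5 of 9 called, Nrp1 higher and Vegfa, Vegfc, Angpt1 and Tek lower, beside 43.2%. Mural nuclei had 1 of 9 (8.23% of all genes), vascular fibroblasts 2 of 9 (13.4%) and T and NK nuclei 1 of 9, Vegfa lower (16.4%). In all, 41 of 83 class comparisons of members were called. The shares in neurons, oligodendrocytes and astrocytes are to be read beside backgrounds of 44.7% to 65.0%.

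**Figure D2:**
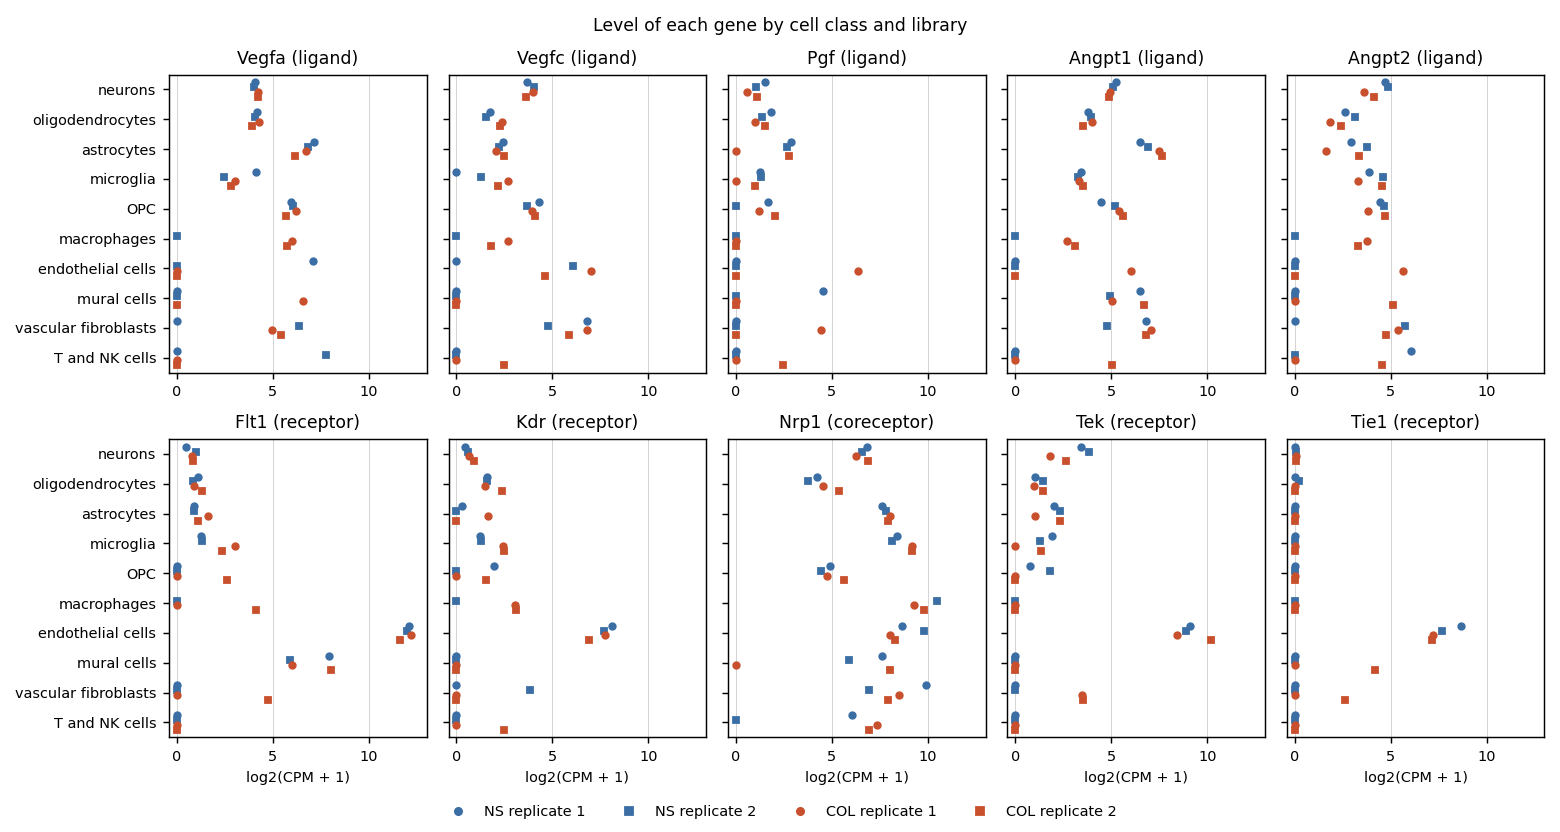
Level of each gene, as log2(CPM + 1), in 10 cell classes (rows) and 4 libraries; blue points are NS, orange points COL, circles replicate 1 and squares replicate 2, and only libraries with 3 or more nuclei of a class are drawn. Flt1, Kdr, Tek and Tie1 are highest in endothelial nuclei, and among the 5 classes with at least 10 nuclei in every library Vegfa is highest in astrocytes.

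**Figure D3:**
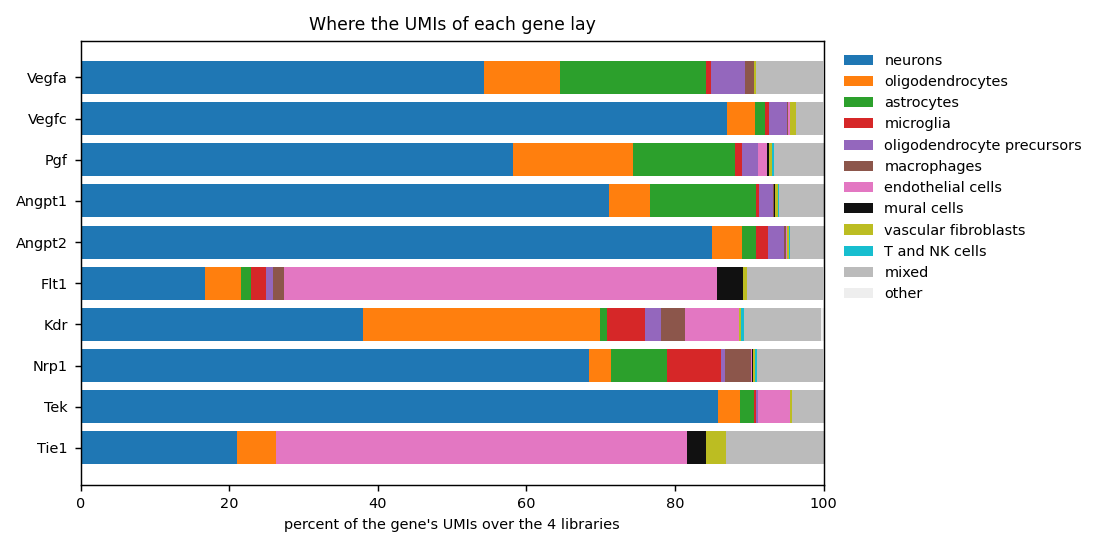
Share of each gene's UMIs over the 4 libraries, in percent, that lay in each cell class. The bars of Vegfc, Angpt2 and Tek are mostly neuronal, and those of Flt1 and Tie1 are mostly endothelial.

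The next comparison asked whether the genes differed between COL and NS in the sum of all nuclei. None of the 10 members was called by edgeR, beside 9.45% of 25570 genes; 4 members had an unadjusted p under 0.05, as had 8604 of all genes, and DESeq2 called 3, beside 4565 of 24544 genes. Fewer cells of a type and less RNA per cell cannot be told apart in such sums. In 7 members the COL and NS libraries did not overlap, 2 higher and 5 lower in COL, as they did not in 51.6% of all genes with a UMI.

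Flt1 lay at 1.25 and 2.18 CPM in NS and at 5.20 and 3.76 CPM in COL over all nuclei, and both COL libraries were above both NS libraries. Its log2 difference was 1.54 ± 0.401 (edgeR adjusted p = 0.058), which was called by DESeq2 (adjusted p = 0.0028). The difference was 1.77 without COL replicate 2, 2.06 without NS replicate 2 and 1.15 without COL replicate 1 or NS replicate 1. Each of the 5 classes with at least 10 nuclei in every library was then given its mean share of UMIs over the 4 libraries. All other nuclei, endothelial ones included, were given theirs as 1 pool, so the endothelial share itself was not held. With this step the plain log2 ratio of the group means fell from 1.38 to 0.91. Without the deepest endothelial nucleus the Flt1 level of COL replicate 1 was 2.63 CPM, still above both NS libraries. Kdr lay at 0.645 and 0.844 CPM in NS and at 1.21 and 1.78 CPM in COL (1.14 ± 0.367, adjusted p = 0.0886).

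Tek lay at 8.21 and 10.5 CPM in NS and at 2.45 and 5.04 CPM in COL, lower in both COL libraries, with a log2 difference of −1.21 ± 0.328 (adjusted p = 0.0625; DESeq2 adjusted p = 0.0074). The difference was −1.76 without COL replicate 2, −1.42 without NS replicate 1 and −0.87 without COL replicate 1. Angpt2 lay at 21.8 and 23.1 CPM in NS and at 9.84 and 14.7 CPM in COL (−0.74 ± 0.191, edgeR adjusted p = 0.0571, DESeq2 adjusted p = 0.0229). Without COL replicate 2 the difference was −1.02, and without COL replicate 1 it was −0.58. With the same shares held at their mean, the plain log2 ratios were −1.36 for Tek and −0.89 for Angpt2. These lay near the −1.32 and −0.87 without that step. The activating ligand Angpt1 also had lower CPM in both COL libraries, at 37.1 and 34.5 CPM in NS and 29.5 and 30.6 CPM in COL, with a fitted log2 difference of −0.10 ± 0.142 (adjusted p = 0.652). None of these 3 genes was called in the main edgeR fit.

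The other members were not called either. Vegfa lay at 24.9 and 22.2 CPM in NS and 21.2 and 20.3 CPM in COL (adjusted p = 0.933), and Vegfc at 10.3 and 12.2 CPM in NS and 13.1 and 9.54 CPM in COL (adjusted p = 0.684). Pgf lay at 2.31 and 1.41 CPM in NS and 0.705 and 1.38 CPM in COL (adjusted p = 0.263). Nrp1 lay at 109 and 88.1 CPM in NS and 91.8 and 141 CPM in COL, where the groups overlapped (adjusted p = 0.2). Tie1 had 6 and 10 UMIs in NS and 12 and 10 in COL (log2 difference 0.66 ± 0.551, adjusted p = 0.425).

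Within cell classes, COL was compared with NS in the 5 classes with at least 10 nuclei in every library. Members were called in 3 of 32 tests: Angpt1 in astrocytes, and Nrp1 in microglia and in oligodendrocytes, all higher in COL. Endothelial, mural and fibroblast nuclei were too few for this test, and only some of their COL and NS values are given above.

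Angpt1 in astrocytes rose from 89.0 and 119 CPM in NS to 181 and 202 CPM in COL, with both COL libraries above both NS libraries. The log2 difference was 0.95 ± 0.193 (edgeR, adjusted p = 0.0067), and Angpt1 was the single call among 7 members tested in astrocytes, beside 16.6% of all genes. Without NS replicate 1 it was 0.70 and its adjusted p 0.105, so the call needed that library. With nuclei thinned to 1000 UMIs, 7.39% and 9.42% of NS astrocytes and 19.2% and 19.9% of COL astrocytes had an Angpt1 UMI, against 1.08% of microglia and 3.15% of T and NK nuclei over the 4 libraries. Unthinned, these shares were 22.7% and 28.0% in NS and 45.1% and 59.3% in COL, and 3.23% in microglia, at median depths of 3729 UMIs in astrocytes and 2963 in microglia. The neuronal marker list, a measure of neuronal RNA in astrocyte nuclei, summed to 1650 and 1510 CPM in NS and to 2430 and 2090 CPM in COL, while Angpt1 in neurons lay lower than in astrocytes of any library. The macrophage list in astrocytes summed to 9.05 and 14.9 CPM in NS and 34.6 and 63.2 CPM in COL, and the mural list to 274 and 238 against 168 and 195 CPM. Their part was not tested. The astrocyte list itself summed to between 9410 and 10300 CPM in all 4 libraries. Gm17473, an antisense gene that overlaps Angpt1, lay at 3.71 to 5.85 CPM in astrocytes.

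Vegfa in astrocytes went the other way in value: 141 and 113 CPM in NS against 105 and 70.8 CPM in COL, a log2 difference of −0.49 ± 0.206 that was not called (adjusted p = 0.123). It was called under the stricter class gate (−0.91, adjusted p = 0.0116) and without COL replicate 1 (−0.79, adjusted p = 0.0132), whereas without COL replicate 2 it was −0.19 (adjusted p = 0.593) and without NS replicate 1 −0.36 (adjusted p = 0.492). Thinned to 1000 UMIs, 13.3% and 9.81% of NS astrocytes and 9.22% and 6.78% of COL astrocytes had a Vegfa UMI, against 0.463% of microglia. Unthinned shares were 37.5% and 28.4% in NS and 38.0% and 34.3% in COL, and 2.61% in microglia, so no order is read from them. Nrp1 in astrocytes lay at 192 and 223 CPM in NS and at 260 and 240 CPM in COL and was not called (adjusted p = 0.207).

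Nrp1 in microglia, the resident immune cells of the brain, rose from 341 and 283 CPM in NS to 572 and 584 CPM in COL. The groups did not overlap, the log2 difference was 0.92 ± 0.158 (edgeR, adjusted p = 0.000884), and it was called in each of the 8 alternative fits, between 0.85 and 1.04. In microglia 2 members could be tested, Nrp1 and Angpt2, beside 26.0% of all genes called. Thinned to 1000 UMIs, 29.4% and 21.1% of NS microglia and 36.9% and 35.0% of COL microglia had an Nrp1 UMI, against 9.45% of T and NK nuclei, and unthinned 44.9% and 39.2% against 74.4% and 77.5%, with 25.0% of T and NK nuclei. The macrophage marker list summed to 154 and 185 CPM in NS microglia and to 325 and 404 CPM in COL microglia, with 5, 8, 3 and 1 of its 11 markers at 0, and COL macrophages held more Nrp1 than microglia. Of the 1301 microglia 249 lay near the class boundary. The neuronal list in microglia summed to 1860 and 1530 CPM in NS and to 2740 and 2270 CPM in COL, and the astrocyte list to 685 and 588 against 293 and 314 CPM. What RNA of other cells added to the rise was not tested, and under the stricter gate the difference was 0.86 (adjusted p = 0.00235).

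Nrp1 in oligodendrocytes, which make myelin, rose from 17.8 and 12.7 CPM in NS to 22.2 and 40.2 CPM in COL, a log2 difference of 1.12 ± 0.272 (edgeR, adjusted p = 0.0203). COL replicate 2 was the high library, and without it the difference was 0.65 (adjusted p = 0.0439). Oligodendrocytes had 1 of 9 members called, beside 22.9% of all genes. The macrophage list in oligodendrocytes summed to 2.85 and 5.57 CPM in NS and to 35.4 and 70.3 CPM in COL, and the microglial list to 140 and 184 CPM in NS and to 182 and 351 CPM in COL, again with the highest value in COL replicate 2. The neuronal list in oligodendrocytes summed to 1410 and 1200 CPM in NS and to 2350 and 1910 CPM in COL, without overlap, and neurons held Nrp1 at a higher level than oligodendrocytes in all 4 libraries. The astrocyte list was lower in COL, at 531 and 466 CPM in NS and 241 and 286 CPM in COL. The part of this RNA in the Nrp1 values was not tested. Vegfc in oligodendrocytes lay at 2.33 and 1.97 CPM in NS and 4.24 and 3.84 CPM in COL (1.00 ± 0.368, adjusted p = 0.0803), and Angpt2 at 5.19 and 7.80 CPM in NS and 2.61 and 4.40 CPM in COL (−0.83 ± 0.372, adjusted p = 0.135).

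In neurons none of 9 members was called by edgeR, where 0.399% of all genes were called. At an unadjusted p under 0.05 there were 3 members, beside 7019 of 24055 genes, and DESeq2 called 2, Tek and Angpt2, beside 2862 of 22321 genes. Tek lay at 9.80 and 13.4 CPM in NS neurons and at 2.48 and 5.22 CPM in COL neurons, lower in both COL libraries, with a log2 difference of −1.48 ± 0.353 (edgeR adjusted p = 0.0917, DESeq2 adjusted p = 0.00227). Angpt2 lay at 25.3 and 27.9 CPM in NS neurons and at 11.4 and 16.7 CPM in COL neurons (−0.78 ± 0.188, edgeR adjusted p = 0.0917, DESeq2 adjusted p = 0.0227). Without COL replicate 2 the difference was −2.04 for Tek and −1.03 for Angpt2. Without any 1 of the other libraries it was −1.74 to −1.12 for Tek and −0.91 to −0.63 for Angpt2. Thinned to 1000 UMIs, 0.948% and 1.42% of NS neurons and 0.160% and 0.384% of COL neurons had a Tek UMI. These were 50, 65, 5 and 11 nuclei. At 2000 UMIs the neuronal shares were 1.92% and 2.31% in NS and 0.449% and 1.22% in COL. At that depth COL astrocytes had 0% and 1.27%, COL oligodendrocytes 0.195% and 0.435%, and COL microglia 0% and 0.718%. Unthinned, the neuronal shares were 9.76% and 12% in NS and 3.96% and 7.39% in COL. The endothelial marker list in neurons summed to 37.9 and 42.2 CPM in NS and to 41.6 and 39.3 CPM in COL, with overlapping groups. Among the lists that did not overlap between groups in neurons were those of several cell types and the neuronal list itself, which summed to 10500 and 10400 CPM in NS and 12200 and 10800 CPM in COL. The mural list summed to 31.0 and 28.2 CPM in NS and 10.8 and 18.5 CPM in COL, the astrocyte list to 432 and 401 against 362 and 266 CPM, and the macrophage list to 8.02 and 9.02 against 26.8 and 38.2 CPM. The OPC list summed to 179 and 155 against 212 and 196 CPM, and the neutrophil list to 2.24 and 2.63 against 6.48 and 10.6 CPM. Their part in the Tek and Angpt2 values was not tested.

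The lower Tek and Angpt2 values were seen in both sets of neurons split by transmitter genes, a split chosen after the data were seen. In nuclei with a UMI of Slc17a6, the vesicular glutamate transporter of thalamic relay neurons, and none of Gad1 or Gad2, Tek lay at 9.54 and 12 CPM in NS and 2.05 and 5.4 CPM in COL (−1.51 ± 0.426, adjusted p = 0.118). In nuclei with a UMI of Gad1 or Gad2, enzymes of GABA synthesis, and none of Slc17a6, it lay at 9.83 and 15.0 CPM in NS and 3.17 and 5.37 CPM in COL (−1.41 ± 0.347, adjusted p = 0.0761). Angpt2 lay at 23.0 and 29.0 against 11.9 and 15.8 CPM in the Slc17a6 nuclei (−0.83 ± 0.209, adjusted p = 0.108) and at 27.2 and 28.5 against 8.66 and 17.3 CPM in the Gad nuclei (−0.98 ± 0.282, adjusted p = 0.0908). None of these was called by edgeR. Vegfa in all neurons lay at 15.5 and 15.0 CPM in NS and at 18.0 and 17.9 CPM in COL, a small difference of 0.39 ± 0.159 (adjusted p = 0.17).

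In OPC none of 5 members was called, beside 12.4% of all genes. An unadjusted p under 0.05 was reached by 1 member, beside 3157 of 11385 genes, and DESeq2 called 0, beside 431 of 10874 genes. Angpt1 lay at 21.2 and 36.0 CPM in NS and at 41.6 and 48.3 CPM in COL (0.73 ± 0.299, adjusted p = 0.136), and was called without COL replicate 1 (0.82, adjusted p = 0.0422) and without NS replicate 2 (1.22, adjusted p = 0.0454), while without NS replicate 1 the difference was 0.34 (adjusted p = 0.648). Nrp1 lay at 29.2 and 20.9 CPM in NS and at 26.0 and 48.3 CPM in COL, where the groups overlapped (0.68 ± 0.323, adjusted p = 0.194), and it was called without COL replicate 1 (0.98, adjusted p = 0.0113), while without COL replicate 2 it was 0.14 (adjusted p = 0.858). Vegfa in OPC had overlapping groups and an adjusted p of 0.909.

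**Figure D4:**
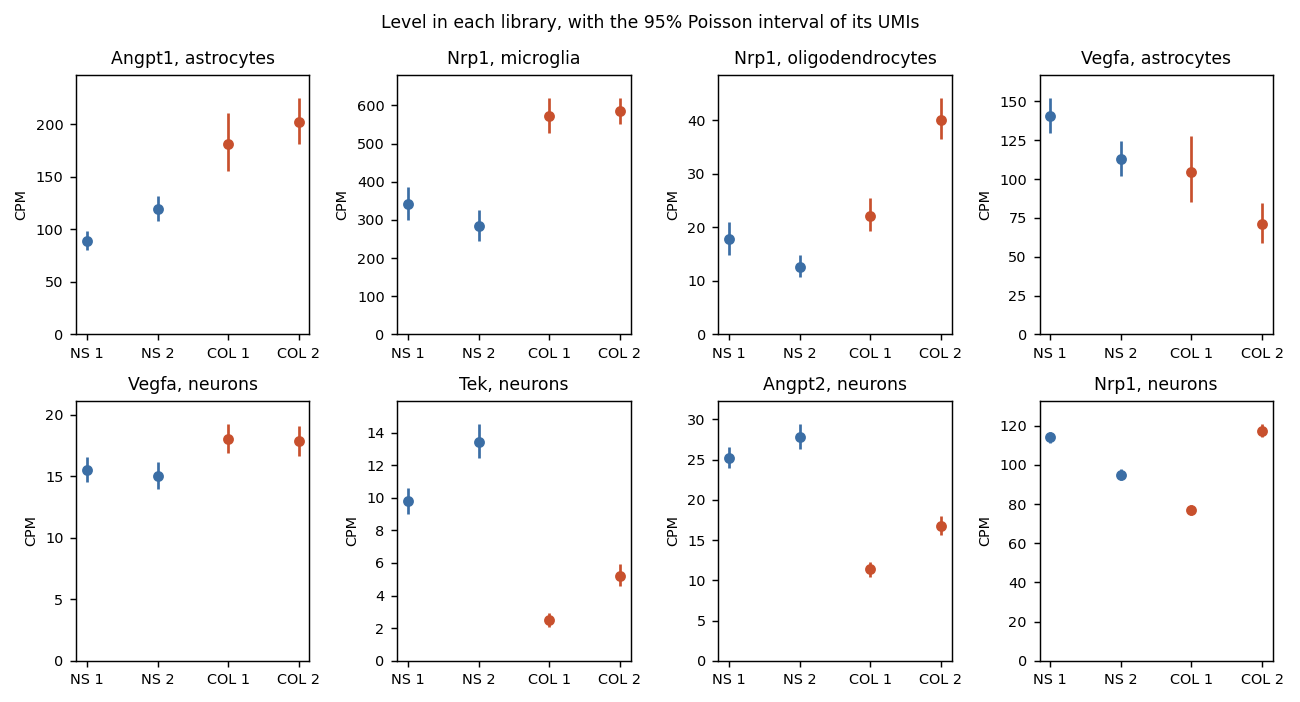
Level in CPM in each library for 8 gene and class pairs, on axes that start at 0, with NS in blue, COL in orange and bars for the 95% Poisson interval of the UMIs (counting error only). Both COL points lie above both NS points for Angpt1 in astrocytes and Nrp1 in microglia, and below them for Tek and Angpt2 in neurons, while for Nrp1 in neurons the groups overlap.

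**Figure D5:**
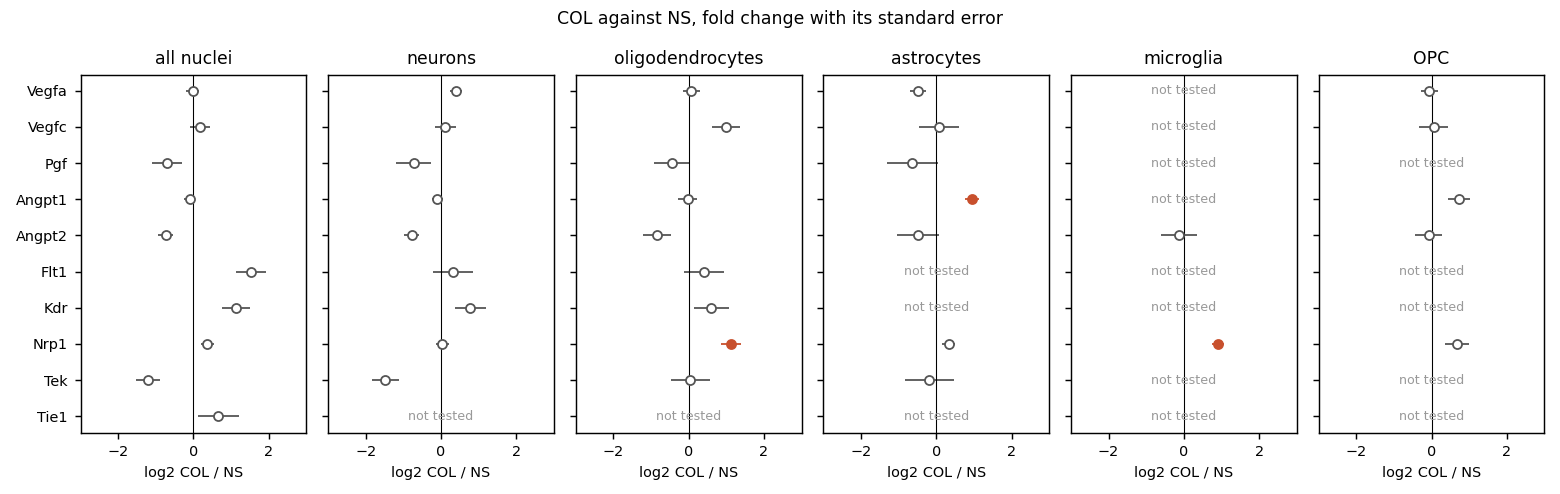
Log2 difference of COL from NS for each tested member in all nuclei and in 5 cell classes, with bars of 1 SE; filled points are called (adjusted p under 0.05). The filled points are Angpt1 in astrocytes and Nrp1 in microglia and oligodendrocytes, all above 0.

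Whether the COL difference itself varied between classes was tested as an interaction, in 1 fit over the 5 classes with the library as a block. In 10 pairs of classes, 7 of 90 member tests were called. The COL difference of Angpt1 was lower in neurons than in astrocytes by 1.13 ± 0.186 on the log2 scale (adjusted p = 0.000227), and that of Vegfa higher by 0.84 ± 0.189 (adjusted p = 0.00678), 2 of 9 members beside 3.76% of all genes. The activating ligand of Tek and the main ligand of Kdr thus differed between these classes in opposite directions. Without NS replicate 1 the adjusted p values were 0.0574 for Angpt1 (difference −0.81) and 0.0987 for Vegfa (0.73), and without COL replicate 2 that of Vegfa was 0.0601 (0.74).

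The COL difference of Nrp1 was higher in oligodendrocytes than in neurons by 1.19 ± 0.225 (adjusted p = 0.000416) and higher in microglia than in neurons by 1.08 ± 0.208 (adjusted p = 0.000517). These calls were made beside 9.75% and 9.79% of all genes, and they were kept in every alternative fit. The COL difference of Nrp1 was also higher in oligodendrocytes than in astrocytes by 0.86 ± 0.24 (adjusted p = 0.0459), a call lost without COL replicate 2 (0.46, adjusted p = 0.394) and without NS replicate 2 (0.45, adjusted p = 0.738), and that of Angpt1 was lower in oligodendrocytes than in astrocytes by 0.95 ± 0.23 (adjusted p = 0.0165), lost without COL replicate 2 (−0.49, adjusted p = 0.404) and without NS replicate 1 (−0.82, adjusted p = 0.178). These were 2 of 9 members beside 2.67% of all genes. The COL difference of Tek was lower in neurons than in oligodendrocytes by 1.61 ± 0.453 (adjusted p = 0.0189), and it missed the threshold when any 1 library was left out, with differences between −1.70 and −1.51 and adjusted p from 0.0605 to 0.193. In the other 6 pairs none of the 9 tested members was called by edgeR, beside 3.23% of all genes for astrocytes against microglia, 1.30% for astrocytes against OPC, 4.13% for microglia against OPC, 1.23% for neurons against OPC, 5.72% for oligodendrocytes against microglia and 3.76% for oligodendrocytes against OPC, and 0 to 4 members per pair had an unadjusted p under 0.05. Median differences of all genes in these fits ranged from −0.153 to 0.205. Over the 7 called results, 14 of 42 alternative fits lost the call, and the losses named here are not all of them.

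Further genes of the pathway were taken from a list of 57 genes that excludes the members. In all nuclei 7 of 55 tested genes were called (12.7%, against 9.45% of all genes), 6 higher and 1 lower, and the median log2 difference was 0.34 against 0.02 over all genes. Among receptors and their partners 2 of 8 were higher, the integrin subunits Itgav (34.0 and 41.3 CPM in NS, 57.4 and 83.1 CPM in COL, log2 difference 1.03 ± 0.191) and Itga5 (1.11 ± 0.219). Of 6 ligands, 1 was called: Sema3c, a semaphorin that signals through neuropilins, fell from 51.6 and 47.1 CPM to 24 and 30.1 CPM (−0.72 ± 0.137, adjusted p = 0.032). Of 10 tested sprouting genes, Cxcr4, a chemokine receptor of tip cells and leukocytes, and Pdgfb, the growth factor that recruits pericytes, were higher (4.02 ± 0.429 and 0.75 ± 0.178). Cxcr4 had 8 and 8 UMIs in NS and 92 and 136 in COL. Macrophages were 0.0192% of nuclei in NS and 2.02% in COL, and T and NK nuclei 0.0557% and 0.955%. The part of these shares in the sums over all nuclei was not tested. Egln3, an oxygen-sensing hydroxylase, was the single call among 14 hypoxia genes (1.70 ± 0.295), and Nfatc1, a calcineurin target, the single call among 17 signal carriers (1.49 ± 0.251).

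Within classes the list was called at shares near or below the background. DESeq2 called other numbers of these genes: 3 in microglia where edgeR called 9, 2 in astrocytes (edgeR 4), 8 in oligodendrocytes (edgeR 11), 2 in OPC (edgeR 3) and 13 in all nuclei (edgeR 7). Microglia had 9 of 37 tested genes called (24.3%, against 26.0%), 5 higher and 4 lower. There Nrp2, the second neuropilin and a coreceptor for Vegfc, rose from 88.1 and 79.2 CPM in NS to 200 and 232 CPM in COL (1.39 ± 0.186, adjusted p = 0.000148), as did Itga5 (1.59 ± 0.298) and Hif1a, the oxygen-regulated transcription factor (0.90 ± 0.228), while Sema3c (−1.16 ± 0.263) and Pdgfb (−0.56 ± 0.185) fell. The other 2 hypoxia genes called in microglia, Ndrg1 (−1.08 ± 0.324) and Pdk1 (−0.66 ± 0.225), also fell. Pdgfb lay at 230 and 182 CPM in NS microglia and at 150 and 126 CPM in COL microglia.

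Oligodendrocytes had 11 of 50 called (22.0%, against 22.9%), 7 higher and 4 lower. Plvap, a protein of endothelial diaphragms, lay at 2.85 and 1.89 CPM in NS and 9.68 and 12 CPM in COL (2.30 ± 0.317, adjusted p = 0.00383), and Angpt4, another Tek ligand, at 1.30 and 0.771 CPM in NS and 3.05 and 5.15 CPM in COL (2.10 ± 0.465). Vegfb, a ligand of Flt1, lay at 16.7 and 19.9 CPM in NS and 6.20 and 11.2 CPM in COL (−1.0 ± 0.283). Cxcr4 had 0 UMIs in both NS libraries and 10 and 25 in COL. COL replicate 2, the higher library for Cxcr4, was also the highest for the macrophage list in oligodendrocytes, which summed to 2.85 and 5.57 CPM in NS and 35.4 and 70.3 CPM in COL. The T and NK list there summed to 223 and 216 CPM in NS and 174 and 157 CPM in COL, with 4, 4, 0 and 0 of its 12 markers at 0. The part of such RNA in these genes was not tested. Astrocytes had 4 of 40 called (10.0%, against 16.6%): Itga5 (2.17 ± 0.418) and Foxo1, a transcription factor that Tek signalling restrains (1.09 ± 0.207), were higher, and Sema3c (−0.89 ± 0.244) and the glycolytic gene Pgk1 (−0.94 ± 0.286) lower. OPC had 3 of 36 called (8.33%, against 12.4%), Itgav, Ppp3ca and Pik3r1, all higher. In OPC the macrophage list summed to 4.38 and 5.86 CPM in NS and 54.6 and 75.3 CPM in COL, the OPC list itself to 5450 and 5400 against 6560 and 6390 CPM, and the astrocyte list to 1040 and 978 against 781 and 723 CPM. Their part in the OPC values, members included, was not tested. In neurons none of 55 was called by edgeR, with 20 at an unadjusted p under 0.05 and 9 called by DESeq2, to be read beside the 7019 of 24055 and 2862 of 22321 genes of the whole table.

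For each member with 100 or more UMIs the genes with the most similar pattern were found, as Pearson's r of log2(CPM + 1) over the 20 sums of 5 classes in 4 libraries, which share libraries and depth. Angpt1 was most like Mapk4 (r = 0.966), Tead1 (0.963) and Usp53 (0.951), and Vegfa most like Hey2 (0.961), Gm11266 (0.959) and Il17rd (0.955). Nrp1 was most like Npl (0.964), Camk2d (0.952) and Rreb1 (0.943). Vegfc was most like Gm44769 (0.958), Tek most like Gas2l1 (0.919) and Angpt2 most like Gm16036 (0.900). For the low members the values were 0.910 (Flt1 and Gins3), 0.815 (Pgf and Fam43a) and 0.811 (Kdr and Ppih). Endothelial nuclei, where Flt1, Kdr and Tek were highest, are not among these sums, so the measure leaves out that class. Tie1 had too few UMIs for this measure.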

How the data were processed

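Nuclei of mouse thalamus were profiled in 4 libraries, NS replicates 1 and 2 and COL replicates 1 and 2. Per the labels and the submitters' processing notes, the authors prepared 10x Chromium v2 libraries and processed them with Cell Ranger 1.2.0 against mm10 (GRCm38), and the deposited matrices hold raw UMI counts per gene and nucleus. Gene coordinates came from GENCODE M21, and promoters from RefSeq. A nucleus needed over 50 detected genes and a mitochondrial share under 5%. Marker lists assigned classes: a nucleus needed 3 markers, and a second class score of at most 0.7 of the best (stricter gate, 0.5), otherwise it was mixed. The gate rule was written after the data were seen. No doublet caller was run, and the mixed class and the stricter gate stand in its place.

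Counts were summed per library and class and tested with edgeR 4.0.16 in R 4.3.3 (quasi-likelihood F test, TMM, low-count filter, Benjamini-Hochberg over all genes tested, threshold 0.05), with DESeq2 1.42.0, no filter, the stricter gate, a replicate block and each library left out as alternatives. Scripts were tested on simulated counts. The splits of neurons and the omission of the deepest endothelial nucleus were added after the data were seen. The members and lists were chosen with earlier results of these data known. All members are named, with up to 4 called genes per pathway group, and the likeness measure used a pseudocount of 1. Intervals and floors cover counting error only. No batch is given in the sources, and with 2 libraries per group p-values of COL against NS measure the spread between pools of 3 mice. Class comparisons set nuclei of the same libraries against each other, and the fits share information on spread over genes. Their very small p-values, some from few nuclei, are not a measure of the spread between mice.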

Additional observations from a re-analysis of the deposited data

Results flagged for a closer look

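The difference between COL and NS itself differed between cell classes in 7 tests of members (edgeR interaction test over 5 classes, adjusted p under 0.05), which is why these are listed. Each value is the log2 difference between COL and NS in the first class minus that in the second. For Angpt1 it was −1.13 (neurons minus astrocytes) and −0.95 (oligodendrocytes minus astrocytes), where Angpt1 passed the test in astrocytes and not in the other classes. For Nrp1 it was −1.19 (neurons minus oligodendrocytes), −1.08 (neurons minus microglia) and 0.86 (oligodendrocytes minus astrocytes). For Vegfa it was 0.84 (neurons minus astrocytes), where neither class passed the test on its own. For Tek it was −1.61 (neurons minus oligodendrocytes), on a level in oligodendrocytes of 0.979 to 1.78 CPM. Marker sums of other cell types also moved between the groups in these classes, with values for several lists beside the results above, and their part was not tested.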

How the results depend on the processing

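Of the 10 members in all nuclei, 0 were called, against 3 by DESeq2, 4 without the low-count filter, 3 with the replicate block and 0 to 3 with 1 library left out. Within classes 3 of 32 tests were called, against 5 by DESeq2, 6 without the filter, 6 with the block and 2 to 7 with 1 library left out. Replicate numbers share only a number: over 22103 genes the replicate differences of the 2 groups correlated at r = 0.11. Class comparisons gave 41 calls (38 to 41 with 1 library left out) and interactions 7 (3 to 10). Directions were compared for a selection: called results and, for COL against NS, also those with an adjusted p under 0.2. Lower class calls were left out. The alternative fits reuse these libraries, so the selection itself favours agreement. Direction was the same in 94 of 94 values from 11 results within classes and 28 of 28 from 4 in all nuclei. It was also the same in 42 of 42 values from 7 interactions and 124 of 126 from 18 class comparisons. The exceptions were Pgf in endothelial nuclei, −8.57 under the stricter gate and −8.82 to 4.52 with 1 library left out, where its UMIs came from 1 nucleus. Microglia were 3.17% of NS and 5.42% of COL nuclei under the main gate. Their COL minus NS share was 2.25 points there and 0.196 points under the stricter gate. Under the stricter gate it was 0.638 points for macrophages and 14.7 for mixed nuclei. COL minus NS shares of nuclei with a UMI were 9.43 points at 2000 UMIs and 26.9 unthinned for Angpt1 in astrocytes, 33.9 unthinned for Nrp1 in microglia, −8.71 at 2000 UMIs and 3.26 unthinned for Vegfa in astrocytes, and −1.28 at 2000 UMIs and −5.22 unthinned for Tek in neurons. Genes called overall moved as well: in all nuclei 2416 against 4565 (DESeq2), 6893 (no filter), 5563 (block) and 1603 to 7012 with 1 library left out. In neurons there were 96, all higher, against 2862 by DESeq2 (965 higher, 1897 lower), 4201 without the filter, 2262 with the block, 25 under the stricter gate and 0 to 6068 with 1 library left out. For astrocytes 2311 became 982 (DESeq2) and 1540 (stricter gate), for microglia 2836 became 1267 (DESeq2), and for OPC 1416 became 431 (DESeq2) and 848 (stricter gate). With 1 library left out the counts were 1398 to 2668, 1436 to 3192 and 364 to 1994 for these 3 classes and 2266 to 6501 for the 3983 of oligodendrocytes. In such fits the lone library of a group is assumed to vary like the others. Apart from the fewer samples, genes or nuclei these fits used, the cause was not tested.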
